A study of Drosophila melanogaster with 30 samples.

Results

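Elements of 5 genes that select the identity of eye, wing, limb, antenna and wing margin were followed through a reporter screen for silencers in the Drosophila embryo. They were chosen by name, as the windows whose name begins with ey, vg, Dll, ss or ct, and the rule used no measured value. These elements were, however, chosen with earlier results of these data known. There were 14 of them among the 591 elements of the 2 pools: 3 of eyeless (ey), 2 of vestigial (vg), 2 of Distal-less (Dll), 3 of spineless (ss) and 4 of cut (ct). All 14 were in the pool of round 1, which held 576 elements, and 1, Dll_304, was also in the pool of round 2, which held 188.

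In the screen each barcoded element sat beside a strong ubiquitous enhancer that drove GFP. Males carrying random picks of the reporter pool were crossed to twi:CD2 females, and since twist is active in the mesoderm, an antibody to rat CD2 marked the mesodermal cells. Embryos collected over 2.25 h and aged for 11 h at 18 °C were dissociated and sorted, and the inserts were recovered by nested PCR from genomic DNA and counted by sequencing. Round 1 had 3 populations with 6 libraries each: CD2+ cells with low GFP, all CD2+ cells, and CD2- cells. Round 2 had 6 libraries each of low-GFP CD2+ and of all CD2+ cells. Within a round, all groups carried the reporter insertion pool of that round crossed to twi:CD2 and differed only in the sort. The rounds differed in pool and in collection days. The 6 libraries of a group came from 6 collection days, the first 3 of them in experiment 1 and the others in experiment 2. The libraries hold DNA, so that no marker genes were measured and the purity of the sorts was not tested.

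Libraries held 3399506 to 5934098 read 1 counts in round 1, and 2928510 to 5488936 in round 2. Levels are given as CPM, counts scaled to library size by TMM. The TMM factors of round 1 ran from 0.359 to 1.06 in low-GFP and from 0.962 to 1.31 in control libraries. A factor under 1 puts CPM above the raw share, as in the low-GFP libraries of all days but 3 and 6. The lowest factor was that of the low-GFP library of day 4, and results that change without that library are named. PCR reads carry no molecular identifiers, so that floors cover counting error only.

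Selector genes encode transcription factors that commit a field of cells to an organ. Eyeless, a Pax6 factor, starts eye development. Vestigial with its DNA-binding partner Scalloped specifies the wing, and its boundary and quadrant enhancers are active in complementary parts of the wing disc, the boundary enhancer as a target of Notch. Distal-less is a homeodomain factor of the distal limb, spineless a bHLH-PAS factor of antennal and tarsal identity, and cut a homeodomain factor of sense organs, Malpighian tubules and the wing margin. These genes act mainly in ectodermal derivatives. The screen asks whether their elements are recovered more often from mesodermal cells in which the reporter is weak, and the elements of a gene can be compared with each other within a library.

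The barcodes that identify the elements on which the comparisons below turn are shown 5′ to 3′ as the deposited tables give them, for ey on chromosome 4, ss on chromosome arm 3R and ct on the X chromosome. Every member's barcode differed at 3 or more of its 12 bases from all others in the round 1 pool.
ey_UE0.9: ccaggcagtcta
ey_5D11: tagctgggtaaa
ey_UE0.8: acgctgggacgg
ss_E2.0_531: tcgctgggttgt
ss_P732: agaagtcttggg
ct_ct-3: taagtcttgccc
ct_340: tctacggtgcta

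Of the 14 elements, 12 were above 0 in round 1, and all 12 passed the filter on low counts. The early limb enhancer Dll_304 and ct_cutA2 had 0 counts in all 18 libraries, so that each could have been present at 0.4 to 1.72 CPM, depending on the library (3 counts, TMM-scaled), and not be seen. They were not alone, since 160 of the 576 elements were at 0 in every round 1 library. In low-GFP cells against both controls, 2 of the 12 elements rose, ey_UE0.9 and ct_ct-3, and 5 fell, ey_5D11, vg_quadrant_enhancer, Dll_215, ss_E2.0_531 and ss_P732 (edgeR quasi-likelihood test, adjusted p under 0.05 over 358 elements). Of the 2 that rose, ct_ct-3 would not have passed the filter without its low-GFP libraries, so that its call says little beyond its counts. Of all 358 elements tested, 15.9% were called higher and 10.1% lower. These calls were 57 rises and 36 falls. Without TMM, on total counts, they were 47 and 56, and on a scale set by the E. coli elements of the pool 58 and 27. None of the 12 elements had 6 low-GFP libraries that all lay outside the range of the 12 controls, against 9.5% of all elements above and 1.96% below. The median log2 fold change was -1.76 over the 12 elements and -0.61 over all elements, and the latter was -1.23 with total counts and -0.47 with E. coli scaling. The 8 tested elements named after E. coli had a median of -2.04 with a range from -6.47 to 2.43. A fall measured against 0 is therefore not a fall against these elements, and that difference was not tested.

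**Figure D1:**
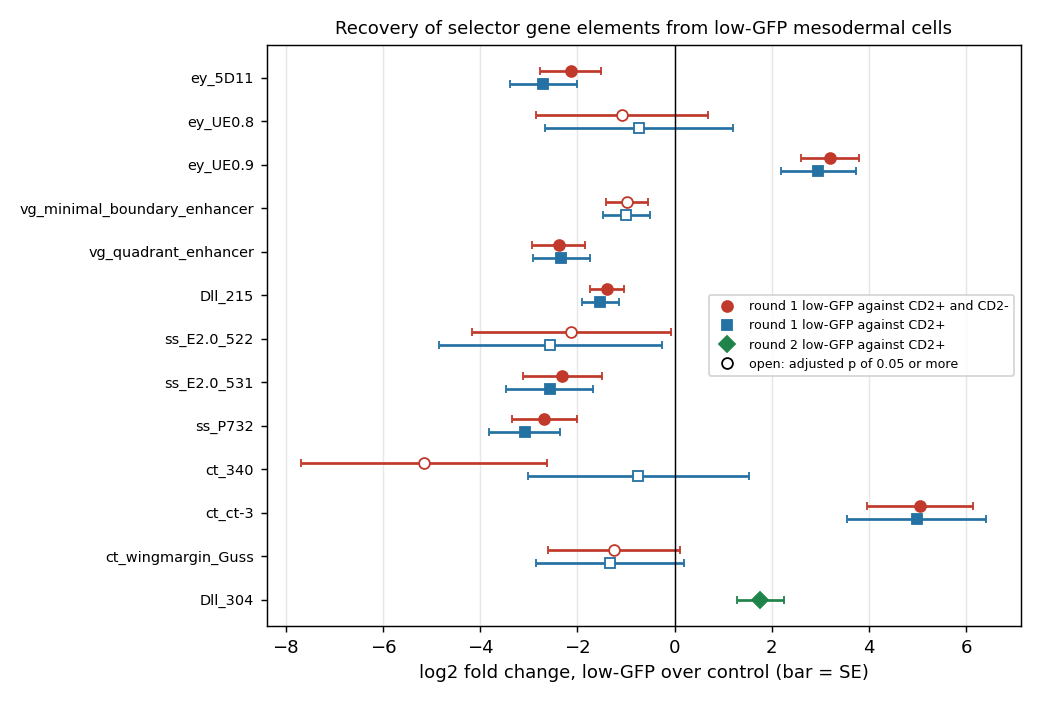
The log2 fold change of each element in low-GFP cells is plotted against both controls (red circles) and against CD2+ cells alone (blue squares) in round 1, and against CD2+ cells in round 2 (green diamond), with bars of 1 SE and open symbols for an adjusted p of 0.05 or more. ey_UE0.9 at 3.19, ct_ct-3 at 5.04 and Dll_304 at 1.76 lie to the right of 0, and the other 10 elements lie to its left.

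Of the 3 eyeless elements, ey_UE0.9 was called higher, ey_5D11 was called lower and ey_UE0.8 was not called. ey_UE0.9 rose in low-GFP cells to 15871 ± 13271 CPM, against 1484 ± 1192 in the CD2- sort and 2098 ± 1973 in the CD2+ sort (mean ± SD, n = 6 each), 8.86 times the mean of the 12 control libraries. From day 1 to day 6 the low-GFP libraries held 16515, 22869, 5457, 38583, 7917 and 3884 CPM. The control libraries ran from 310 to 5807 CPM, so that all but the low-GFP libraries of days 3 and 6 lay above every control. The change fitted on the log2 scale was 3.19 (SE 0.60, edgeR adjusted p = 0.000601), with the low-GFP library above the mean of its controls on 6 of 6 days. Of the raw counts, which no scaling touches, it made up 0.942 ± 0.495% in low-GFP cells and 0.174 ± 0.128% and 0.232 ± 0.215% in the CD2- and CD2+ sorts. Without the low-GFP library of day 4, the highest, the log2 fold change was 2.52 (edgeR adjusted p = 0.00444). Relative to the median of all elements it was 3.80, or 3.47 with total counts and 4.45 with E. coli scaling.

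ey_5D11 fell in low-GFP cells to a median of 367 CPM (147 to 1254), from 1574 CPM in the CD2- sort (710 to 2268) and 3566 CPM in the CD2+ sort (803 to 7427). The low-GFP libraries of 5 days lay below every control library, and that of day 6 did not. On the log2 scale the change was -2.14 (SE 0.63, edgeR adjusted p = 0.0150), below 0 on 6 of 6 days. The call rested on single days, as the adjusted p was 0.133 without day 3 and 0.0554 without day 5. ey_UE0.8 had 0 counts in 1 library of each population and up to 637 CPM in a control library, and its medians were 69.3 CPM in low-GFP cells, 13.8 CPM in the CD2- sort and 75.6 CPM in the CD2+ sort. Its groups overlapped over their whole range, and its log2 fold change of -1.08 (SE 1.77) did not pass (edgeR adjusted p = 0.685).

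Within a library, the ratio of a gene's elements does not depend on how libraries are scaled. ey_UE0.9 took 75.1% to 99.6% of the counts of the 3 ey elements in the 6 low-GFP libraries. In CD2+ cells it took 9.48% to 57.8%, and in CD2- cells 9.90% to 74.4%. The ratio of ey_5D11 to ey_UE0.9 thus did not overlap between the 6 low-GFP and the 12 control libraries, although by a narrow margin on the log2 scale, with a highest value of -1.63 in low-GFP and a lowest of -1.54 in control libraries. Of all 63903 pairs of tested elements, 5.64% had a ratio that did not overlap between these libraries. The daily log2 ratio of low-GFP over control recovery was lower for ey_5D11 than for ey_UE0.9 on 6 of 6 days, with a mean difference of -5.44 (SD 2.73, range -9.49 to -1.15). The exact two-sided sign-flip permutation test gave p = 0.03125, the smallest that 6 days allow, and 0.156 after adjustment over the 10 pairs of elements compared, so that no pair could pass that adjustment unless several reached the smallest p. ey_UE0.8 differed from the other 2 by less than the spread between days: ey_5D11 minus ey_UE0.8 averaged -2.83 (SD 4.93) and ey_UE0.8 minus ey_UE0.9 averaged -2.61 (SD 7.25), with exact permutation p = 0.188 and 0.5.

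**Figure D2:**
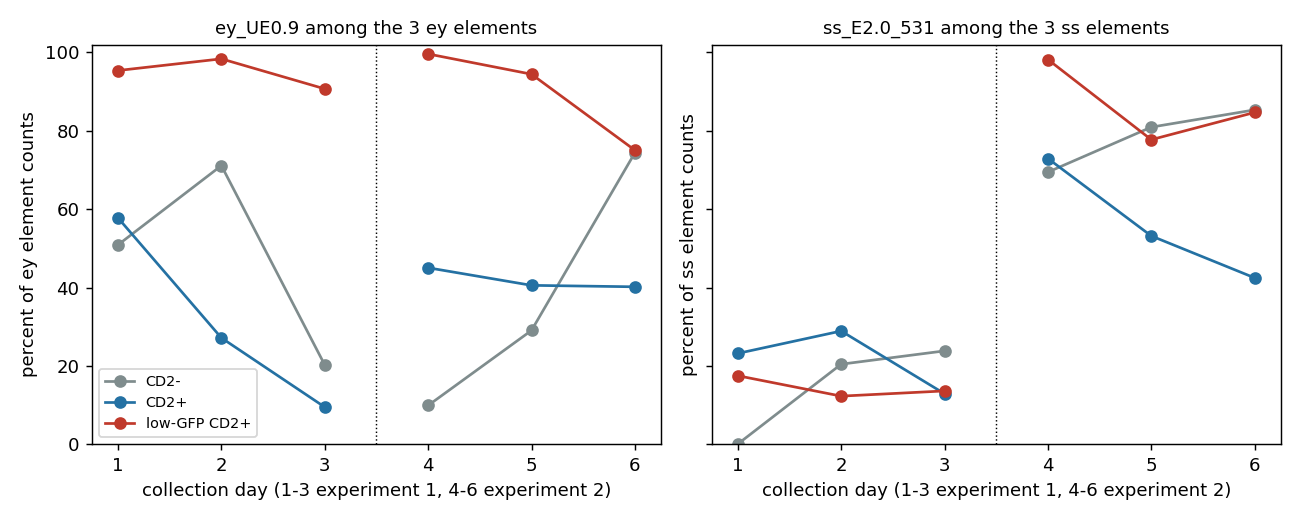
Each point is the percent of a gene's element counts taken by ey_UE0.9 (left) or ss_E2.0_531 (right) in 1 library of round 1, by collection day and population, with the dotted line between the experiments. ey_UE0.9 took 75.1% or more in every low-GFP library, while ss_E2.0_531 took at most 28.9% in experiment 1 and at least 42.5% in experiment 2 in all 3 populations.

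The 2 vestigial enhancers were both abundant. vg_quadrant_enhancer fell in low-GFP cells, to 592 ± 374 CPM, from 2945 ± 1760 in the CD2- sort and 3108 ± 2343 in the CD2+ sort (mean ± SD, n = 6 each). Its low-GFP libraries ran from 231 to 1263 CPM around a median of 475 CPM, and the control libraries from 647 to 6941 CPM, so that the groups overlapped at their edges. This was a log2 change of -2.39 (SE 0.55, edgeR adjusted p = 0.00278), with 6 of 6 days below 0 and daily values from -3.12 to -1.27. Relative to the median of all elements it was -1.78, or -1.82 with total counts and -1.77 with E. coli scaling.

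vg_minimal_boundary_enhancer was the fourth most abundant of all tested elements in the controls, at 14665 ± 5756 CPM (CD2-) and 15544 ± 8496 CPM (CD2+). In low-GFP cells it held 7407 ± 5019 CPM, with libraries from 1570 to 14532 CPM that overlapped with the 5548 to 30670 CPM of the controls. Its change of -0.98 on the log2 scale (SE 0.43) did not pass (edgeR adjusted p = 0.109), with 5 of 6 days below 0. It passed with total counts (-1.68, adjusted p = 0.00525) and without day 2 (-1.38, 0.0391), while E. coli scaling gave -0.47 (0.575). The recovery of the boundary enhancer exceeded that of the quadrant enhancer by 0.98 on the log2 scale (SD 1.63, range -0.73 to 3.17, 4 of 6 days above 0), and the exact two-sided permutation test over days gave p = 0.281 (adjusted 0.402). A difference between the 2 vestigial enhancers was thus not resolved, although only the quadrant enhancer passed the threshold.

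**Figure D3:**
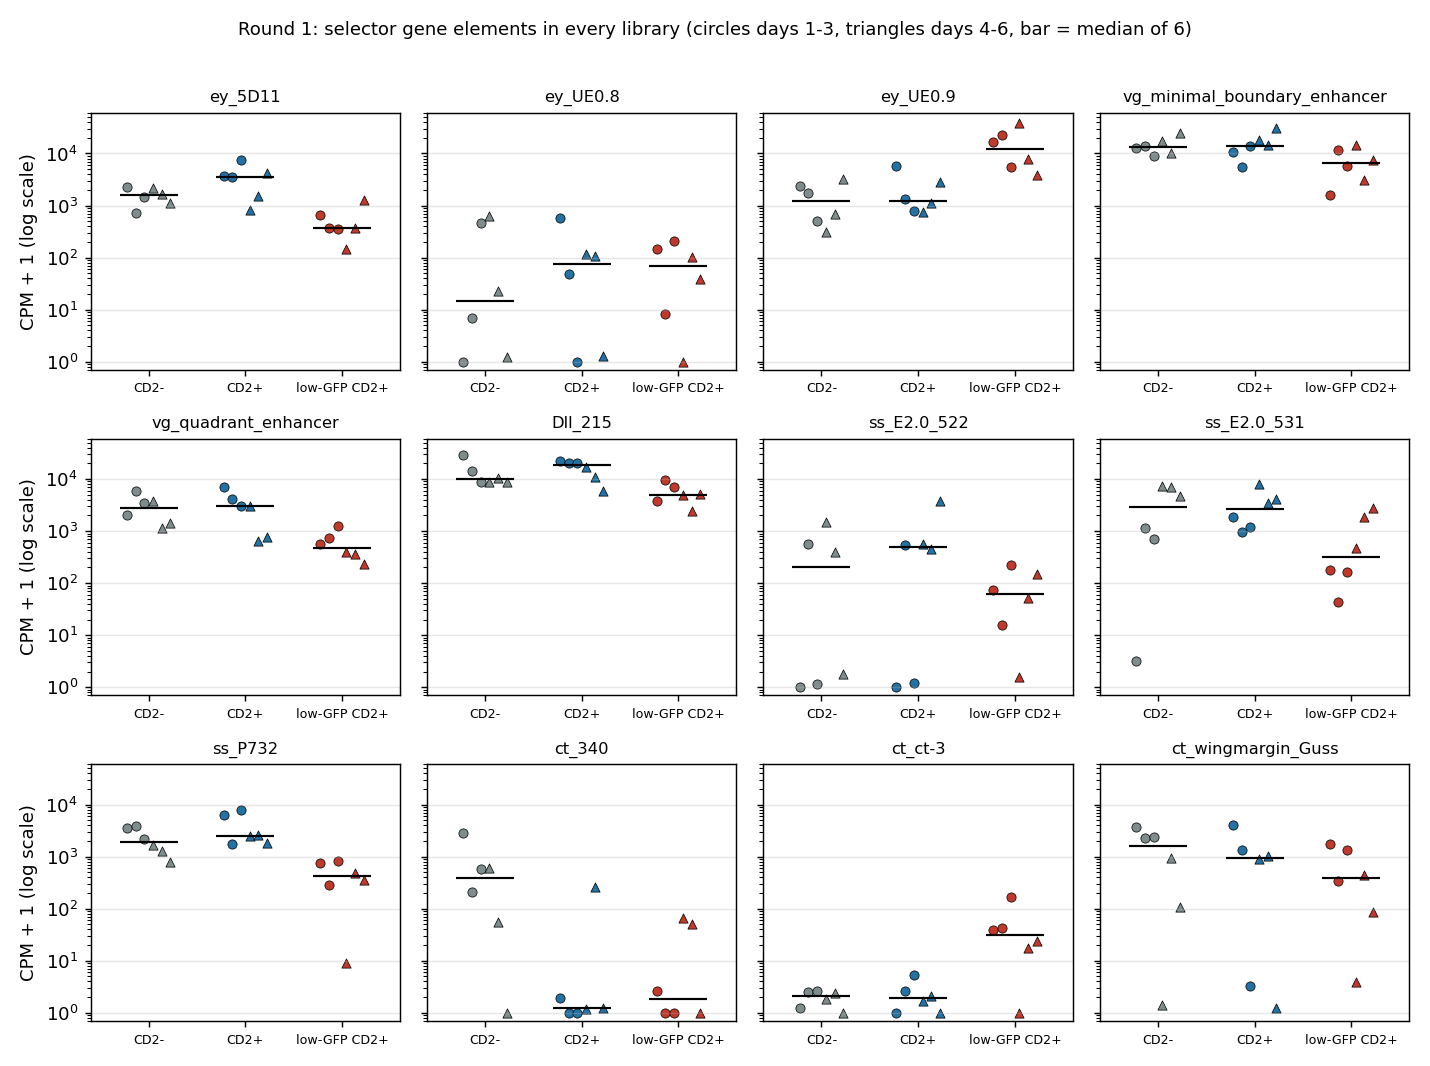
Each panel shows 1 of the 12 elements in the 18 round 1 libraries, as CPM + 1 on a log scale by population, with circles for days 1 to 3, triangles for days 4 to 6 and a bar at the median of 6. The vg boundary enhancer and Dll_215 lie highest in the controls, while ct_340, ss_E2.0_522, ey_UE0.8 and ct_wingmargin_Guss spread widely within a population, ct_wingmargin_Guss from 0.426 to 3752 CPM in CD2- cells.

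The Distal-less elements were measured in different rounds. Dll_215, the fifth most abundant tested element in the controls, fell in low-GFP cells to 5518 ± 2571 CPM, from 13332 ± 7738 in the CD2- sort and 16220 ± 6498 in the CD2+ sort (mean ± SD, n = 6 each). Its low-GFP libraries had a median of 5050 CPM (2418 to 9673), and the controls ran from 6009 to 28483 CPM. The groups overlapped between 6009 and 9673 CPM. The fit gave a log2 change of -1.39 (SE 0.35, edgeR adjusted p = 0.00505), with 6 of 6 days below 0 (-2.75 to -0.52). With E. coli scaling it did not pass (-1.13, edgeR adjusted p = 0.118). Relative to the median of all elements the value was -0.78, or -0.79 with total counts and -0.66 with E. coli scaling.

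Dll_304, which drives Distal-less in the limb primordia of the embryo, was present in all 12 libraries of round 2. It carried the same barcode in both pools. In low-GFP cells it rose to 16738 ± 6334 CPM from 4978 ± 3274 CPM in CD2+ cells (mean ± SD, n = 6 each), 3.36 times the CD2+ mean. The low-GFP libraries held 19780, 20615, 14239, 4838, 20973 and 19985 CPM from day 1 to day 6, and the CD2+ libraries 9766, 3790, 3855, 1951, 8307 and 2197 CPM. The low-GFP library of day 4 lay within the CD2+ range, and the other 5 lay above all CD2+ libraries. The log2 change of 1.76 (SE 0.48) passed the test (edgeR adjusted p = 0.0293) and lay above 0 on 6 of 6 days with daily values from 1.02 to 3.19. In that comparison 9.03% of 155 elements were called higher and 5.16% lower, and 6.45% and 3.23% had low-GFP libraries that all lay above or below the CD2+ range. The 14 rises and 8 falls became 8 and 17 on total counts, and 23 and 2 on the E. coli scale. The value for Dll_304 relative to the median of all elements was 1.97, 1.97 and 2.04 with TMM, total counts and E. coli scaling. The call itself was lost with total counts (1.26, edgeR adjusted p = 0.0717) and in 11 of the 18 fits that left out a day or a library, with an adjusted p of up to 0.123.

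Dll_304 and Dll_215 cannot be set against each other, since no member passed the filter in both rounds and ratios are relative to each pool. The absence of Dll_304 from round 1 was shared with many elements. Of the 173 elements listed in both pools, 117 were at 0 in all round 1 libraries, and 78 of those, 45.1% of the 173, were above 0 in every round 2 library.

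**Figure D4:**
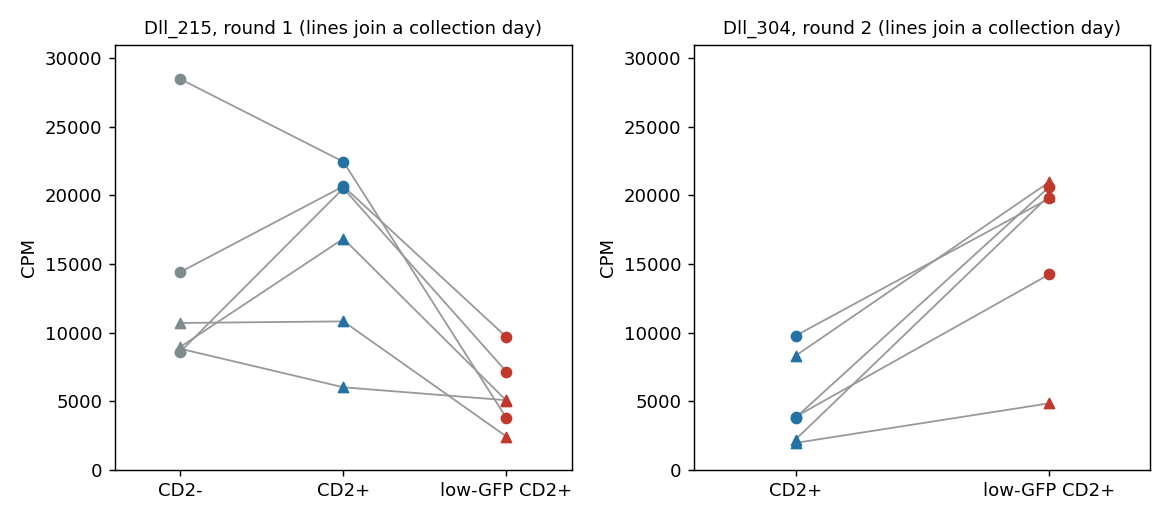
CPM of Dll_215 in round 1 (left) and of Dll_304 in round 2 (right) are shown by population, with grey lines joining the libraries of a collection day, circles for experiment 1 and triangles for experiment 2. Dll_215 is lower in low-GFP than in CD2+ cells on 6 of 6 days, and Dll_304 is higher on 6 of 6 days.

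Of the 3 spineless elements, 2 fell. ss_P732 fell to 449 ± 301 CPM in low-GFP cells, from 2250 ± 1265 in the CD2- sort and 3833 ± 2630 in the CD2+ sort (mean ± SD, n = 6 each). Its low-GFP libraries ran from 8.02 to 813 CPM around a median of 418 CPM, against 797 to 3918 CPM in the CD2- and 1790 to 7961 CPM in the CD2+ sort. It was the only 1 of the 12 elements whose 6 low-GFP and 6 CD2+ libraries did not overlap, which in this direction was true of 4.19% of all elements tested and in the other of 10.9%. The log2 fold change against both controls was -2.68 (SE 0.67, edgeR adjusted p = 0.00519), with 6 of 6 days below 0. Without the low-GFP library of day 4, its lowest, it was -2.44 (0.00286).

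ss_E2.0_531 had medians of 322 CPM in low-GFP cells (42.3 to 2810), 2897 CPM in the CD2- sort (2.16 to 7243) and 2693 CPM in the CD2+ sort (945 to 8168). The 3 populations overlapped, and the lowest library of all was a control, CD2- of day 1. Its fitted log2 change, -2.31 (SE 0.81), lay near the threshold (edgeR adjusted p = 0.0423). With collection day as a block the adjusted p was 0.0838, without the low-GFP library of day 4 it was 0.0853, and 15 of 24 fits without a day or a library lost the call. ss_E2.0_522 was low and scattered, with 84.6 ± 84.3 CPM in low-GFP cells, 406 ± 579 in the CD2- sort and 877 ± 1415 in the CD2+ sort. Its log2 fold change of -2.13 (SE 2.05) did not pass (edgeR adjusted p = 0.495) and turned to 2.20 with collection day as a block. The daily recoveries of the 3 spineless elements differed by 1.33 to 3.14 on the log2 scale, with an SD of 2.18 to 5.94, and none of the 3 pairs passed (exact permutation p from 0.250 to 0.531).

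Which spineless element was the more abundant differed between the experiments, in all 3 populations. ss_E2.0_531 took 0.0599% to 28.9% of the ss counts in the 9 libraries of experiment 1 and 42.5% to 98.2% in the 9 of experiment 2. ss_P732 took 54.7% to 99.9% and then 1.68% to 40.0%. The log2 ratio of ss_E2.0_531 to ss_P732 ran from -10.63 to -0.92 in experiment 1 and from 0.41 to 5.82 in experiment 2. Among all pairs of tested elements, 3.01% had a ratio that did not overlap between the experiments. None of the other 9 pairs of elements of 1 gene did so. The level of each element on its own overlapped between the experiments, for ss_E2.0_531 with 2.16 to 1903 CPM and 470 to 8168 CPM. In round 1, 1.68% of all elements lay wholly higher and 0.559% wholly lower in experiment 2, and none of the 12 did. In round 2 these shares were 4.52% and 3.87%, and Dll_304 overlapped.

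Of the 4 cut elements, ct_cutA2 was not seen, ct_ct-3 rose and the other 2 did not pass. ct_ct-3 was rare: it had 0 to 19 counts in the 12 control libraries and ranked 354th of 358 tested elements there. In low-GFP cells it had 136, 137, 795, 0, 50 and 104 counts from day 1 to day 6, which is 37.5, 41.1, 170, 0, 16.6 and 22.6 CPM. Its means were 47.9 ± 61.6 CPM in low-GFP cells, 0.945 ± 0.696 in the CD2- sort and 1.27 ± 1.58 in the CD2+ sort, so that 5 of 6 low-GFP libraries lay above every control and that of day 4 at 0. The fitted log2 change was 5.04 (SE 1.09, edgeR adjusted p = 0.00174), above 0 on 5 of 6 days. An element this rare in the controls would not pass the filter on low counts without its low-GFP libraries. Of the 19 tested elements with a control mean under 20 CPM, 17 were called higher, so that the call says little beyond the counts themselves. Without day 3 it did not pass the filter and was not tested, and the same held in experiment 2 alone.

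ct_wingmargin_Guss, the wing margin enhancer of cut, on which Vestigial and Scalloped act in the wing disc, had medians of 386 CPM in low-GFP cells (2.86 to 1768), 1635 CPM in the CD2- sort (0.426 to 3752) and 955 CPM in the CD2+ sort (0.264 to 4085). The populations overlapped, and the log2 fold change of -1.25 (SE 1.36) did not pass (edgeR adjusted p = 0.549).

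ct_340 differed between the control sorts themselves. Its counts from day 1 to day 6 were 12051, 970, 4373, 4198, 307 and 0 in CD2- cells, but 4, 0, 0, 1, 1142 and 1 in CD2+ cells and 6, 0, 0, 113, 149 and 0 in low-GFP cells. On days 1 to 4 the element was thus present in CD2- cells and nearly absent from CD2+ cells, on day 5 it was present in all 3 populations, and on day 6 in none above 1 count. In CD2+ against CD2- cells it stood at -8.80 on the log2 scale (SE 3.83), the lowest of all 358 elements, with an unadjusted p of 0.0337 and an edgeR adjusted p of 0.999. DESeq2 called it (-9.15, adjusted p = 0.00795). In low-GFP cells it was not called (-5.15, SE 2.53, edgeR adjusted p = 0.157), and without the CD2+ library of day 5 the value was 0.088. Against CD2+ cells alone, the sort that holds the low-GFP cells, it was -0.75 (SE 2.27, edgeR adjusted p = 0.821). Among pairs of cut elements, ct_ct-3 minus ct_wingmargin_Guss averaged 4.04 (SD 2.52) and was above 0 on 6 of 6 days. Its exact permutation p was 0.03125 (adjusted 0.156). On day 4 the low-GFP library held 0 counts of ct_ct-3 and 5 of ct_wingmargin_Guss. The difference of that day, 1.64, thus rests on counts near 0. For ct_340 minus ct_ct-3 the mean was -6.37 (SD 5.36, exact permutation p = 0.0625), and for ct_340 minus ct_wingmargin_Guss -2.33 (SD 4.66, p = 0.281). ct_ct-3 had 20 counts or fewer in all 12 controls and would not have been compared without its low-GFP counts. The p-values of its pairs therefore say little beyond the counts.

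Against CD2+ cells alone, the 7 elements called against both controls had adjusted p-values from 0.00495 to 0.0482, again 2 higher and 5 lower. Here too ct_ct-3 would not have been tested without its low-GFP counts. Among all elements 12.3% were called higher and 8.38% lower, with 44 rises and 30 falls that became 39 and 48 on total counts, and 41 and 18 on the E. coli scale. The log2 fold changes were 2.96 for ey_UE0.9, 4.98 for ct_ct-3, -1.53 for Dll_215, -2.34 for vg_quadrant_enhancer, -2.57 for ss_E2.0_531, -2.70 for ey_5D11 and -3.08 for ss_P732. These comparisons share the low-GFP and CD2+ libraries with those above and are no separate evidence. ss_E2.0_531 (0.0482) lost this call in 17 of 24 fits without a day or a library, with an adjusted p of up to 0.172, and with read 2 counts (0.0777). ey_UE0.9 lost it without day 4 (edgeR adjusted p = 0.0548), ct_ct-3 without day 2 or day 5 (0.0542 and 0.05005), ey_5D11 without day 3 (0.117) and Dll_215 without day 3 or day 5 (0.0701 and 0.05005). With E. coli scaling only 2 of the elements stayed lower, ey_5D11 (0.0135) and ss_P732 (0.00883).

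Between the CD2+ and CD2- sorts, before any selection on GFP, edgeR called 0 of 358 elements (0%). The unadjusted p was under 0.05 for 6, and 3 were called by DESeq2, of which ct_340 was 1. The other 11 elements had log2 fold changes from -0.70 for ey_UE0.8 to 1.12 for ey_5D11. The spread among control libraries was wide for the whole pool: the CV over the 12 control libraries had a median of 94.1% over all tested elements. It was 45.9% for the vg boundary enhancer, 47.2% for Dll_215, 65.3% for vg_quadrant_enhancer, 70.2% for ss_P732 and 88.6% for ey_UE0.9, and it reached 214% for ct_340. At least 1 control library with 20 counts or fewer and another with over 1000 counts were found for 5 of the 12 elements, ss_E2.0_522, ss_E2.0_531, ct_340, ct_wingmargin_Guss and ey_UE0.8, and for 61.5% of all elements tested. Of these 5, only ss_E2.0_531 was called.

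**Figure D5:**
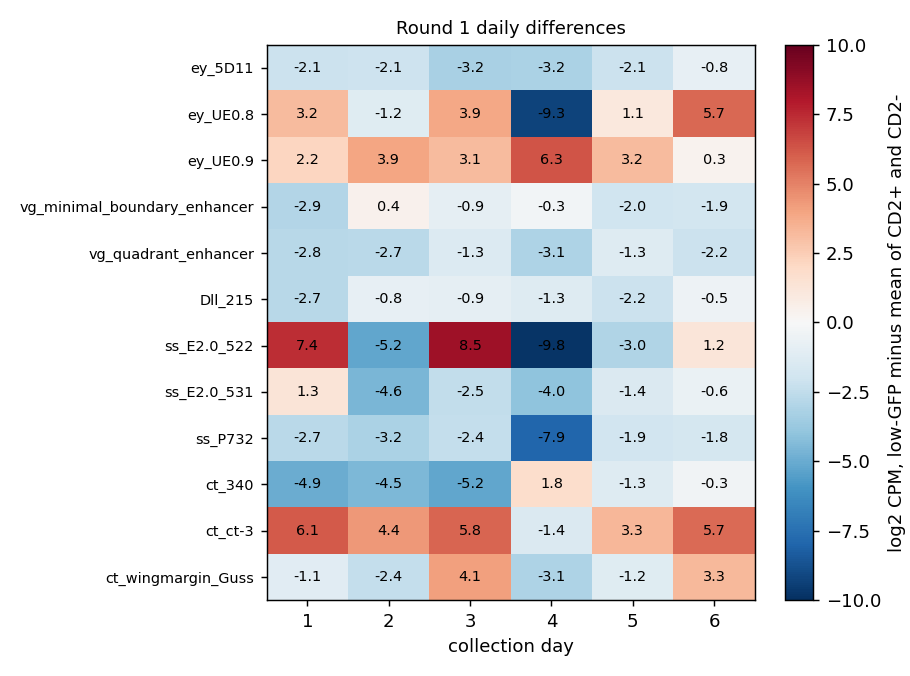
Each cell gives the log2 CPM of low-GFP cells minus the mean of CD2+ and CD2- cells on 1 collection day of round 1, with red above 0 and blue below. ey_UE0.9 is above 0 and ey_5D11, vg_quadrant_enhancer, Dll_215 and ss_P732 are below 0 on 6 of 6 days, while ss_E2.0_522 runs from -9.8 to 8.5.

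The experiments were also compared. No element was called as different between them in its fold change (edgeR called 0 of 358 in round 1 and 0 of 155 in round 2, with 12 and 2 at an unadjusted p under 0.05). With 3 days per experiment, a lack of calls does not show that fold changes were equal. For the 12 elements the difference between experiments ran from -3.05 (SE 3.67) for ss_E2.0_522 to 3.32 (SE 3.63) for ct_340, with an unadjusted p of 0.374 or more. It was 0.23 (SE 0.98) for Dll_304. Fitted alone, experiment 1 kept both rises, at 2.51 for ey_UE0.9 (edgeR adjusted p = 0.0465) and 5.60 for ct_ct-3 (0.0354), and called 4 of the 12 elements lower. For ct_ct-3, which would not pass the filter without its low-GFP libraries, this adds little to the counts. Experiment 2 called ey_UE0.9 (3.37, 0.0446) and none of the 12 elements lower. The values in experiment 2 of the 5 elements called lower over both experiments were nevertheless below 0, from -2.37 for ss_P732 to -1.15 for Dll_215. The shares of all elements called higher and lower are not given for these fits. The counts of called members can therefore not be set against the pool.

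In the authors' deposited tables, which compare low-GFP cells with the controls for each experiment, ey_UE0.9 had a ratio of 7.08 (adjusted p = 0.000194) in experiment 1 and of 12.8 (2.59e-05) in experiment 2. The authors' deposited tables give ct_ct-3 a ratio of 59.6 (adjusted p = 0.0118) and 19.0 (0.0487). Its controls held 0 to 19 counts, and its low-GFP libraries of experiment 2 held 0, 50 and 104. These values therefore say little beyond the counts. For Dll_304 in round 2 the ratios in the authors' deposited tables are 3.09 (adjusted p = 0.0257) and 3.99 (0.00540). Of the 5 elements called lower above, ey_5D11 passed 0.05 in the authors' deposited table of experiment 1 (adjusted p = 0.0296) and not in that of experiment 2 (0.829). The other 4 passed in neither of the authors' deposited tables, with an adjusted p of 0.0542 and 0.453 for ss_P732, 0.120 and 0.379 for vg_quadrant_enhancer, 0.234 and 0.590 for ss_E2.0_531, and 0.240 and 0.661 for Dll_215. Their log2 values in the authors' deposited tables were below 0 in both experiments, at -2.64 and -2.55 for ss_P732 and -2.11 and -2.25 for vg_quadrant_enhancer. For ct_340, not called above, the authors' deposited tables give a log2 value of -10.68 (adjusted p = 4.11e-08) in experiment 1 and of -1.83 (0.949) in experiment 2. The share of elements past 0.05 in the authors' deposited tables was 23.2% and 18.8% in round 1 and 12.4% and 16.8% in round 2.

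Other genes of eye, wing, leg, antenna, sense organ, trachea and Malpighian tubule development were taken from 4 lists of 49 symbols, of which 18 had elements in the round 1 pool. Of their 43 elements 25 were tested, 2 rose and 3 fell, beside 15.9% and 10.1% of all elements, and the median log2 fold change was -0.84 beside -0.61 over all elements. The rises were vvl_484-5prime of the POU factor ventral veins lacking (4.66, SE 1.03) and ac_0.8 of the proneural gene achaete (5.59, SE 1.34). The falls were ems_ems_ARFE-subA of the head gap gene empty spiracles (-2.41, SE 0.48) and the trachealess elements trh_trh24 (-1.88, SE 0.60) and trh_trh45 (-1.87, SE 0.46), with an edgeR adjusted p of 0.0248 or less for all 5. None of the 4 tested elements of eye determination genes passed, among them toy_EEP of twin of eyeless, the other Pax6 gene of the eye, at -2.31 (edgeR adjusted p = 0.0854). In round 2, 13 elements of these lists were tested and 1 rose, beside 9.03% of all elements there. It was dpp_85.8MX, of the BMP ligand of limb patterning (1.60, SE 0.48, edgeR adjusted p = 0.0398).

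For each of the 12 elements the profile of log2 CPM over the 18 round 1 libraries was set beside those of the tested elements outside the 5 genes, as a description of points that share libraries and scaling. ey_UE0.9 was most like the orthodenticle element oc_otd-186 (Pearson's r = 0.844) and the fushi tarazu element ftz_5'delta276 (0.798). ey_5D11 and ss_P732, which correlated at 0.766 with each other, both had bib_5924 of the big brain gene among their 2 closest elements (0.851 and 0.821). The other was BiTS-ChIP_K4me1+K27me3+K27ac_96 (0.833) for ey_5D11 and trh_trh24 (0.822) for ss_P732. Dll_215 was most like ems_ems_ARFE-subA (0.807) and ChIPCRM5432 (0.769), and ss_E2.0_531 was most like E_0_12h_dCtBP7667.region_1555 (0.827) and toy_EEP (0.823). The vg boundary enhancer was closest to E_0_12h_dCtBP7667.region_2713 (0.785) and DHS+K27me3_one-hit_75 (0.721), and the quadrant enhancer to E_0_12h_dCtBP7667.region_2952 (0.757) and CAD2_Ket-2 (0.738). ct_ct-3 was closest to E0_12_GROAviva_ChIP_chip.region_179 (0.864) and CG4364_upstreamCRM (0.840), and ct_wingmargin_Guss to the tinman element tin_tin103A (0.816) and CBP2862 (0.748). Those of the scattered elements were CAD2_Meso-CRM-4906 (0.822) and lab_1.0 (0.757) for ey_UE0.8, CG7759_33 (0.707) and Kr_delBNc0.8HZ (0.598) for ct_340, and E0_12_GROAviva_ChIP_chip.region_311 (0.609) and dpp_dppho (0.603) for ss_E2.0_522. vg_quadrant_enhancer correlated at 0.774 with Dll_215 and at 0.272 with the vg boundary enhancer, and ey_5D11 at -0.639 with ey_UE0.9.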

How the data were processed

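Inserts recovered from sorted embryonic cells were counted in 30 libraries. The authors deposited a read 1 and a read 2 table per library with the count of each element. DESeq is named in the submitters' processing notes, without a version, and the mapper and build are not stated in any source used. The authors also deposited 4 comparison tables holding a ratio, its log2 value and a p-value, which enter only where they are named.

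Differences between populations were tested on read 1 counts in edgeR 4.0.16 (R 4.3.3). Elements passed filterByExpr (minimum count 10), libraries were scaled by TMM, and quasi-likelihood models held terms for population and experiment. P-values were adjusted by Benjamini-Hochberg over every element in the table, and calls were made under 0.05. The SE of a log2 fold change was obtained from the F statistic and restates the test. Daily log2 CPM used a prior count of 2. Pairs of elements of a gene were compared by an exact two-sided sign-flip test over 6 days, adjusted over 10 pairs. A replicate is a collection day. Titles date the libraries and so pair populations: same-day deviations correlated above 0.1 in 17 of 18 pairs of round 1 (smallest 0.0954) and in 6 of 6 of round 2.

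Alternatives were total counts, E. coli scaling, read 2, no filter, DESeq2 1.42.0, collection day as a block, no experiment term, single experiments, and fits without a day or a library. Scripts were tested on simulated data. All elements of the 5 genes were named, with the 2 most correlated elements outside the 5 genes for each tested one and the called elements of related genes. The members and lists were chosen with earlier results of these data known. Chromosomes come from a RefSeq gene table, and element sequences and coordinates were not used here. Floors cover counting error only, since PCR reads carry no molecular identifiers.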

Additional observations from a re-analysis of the deposited data

Results flagged for a closer look

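Among 63 groups of 6 values (CPM of an element in a population, or daily log2 ratios), 12 had a highest or lowest value separated from the rest by more of the range than Dixon's 95% critical value. A rate of about 1 flag in 20 groups holds only for independent groups of normally distributed values. These groups share libraries and the CPM were not on a log scale, so that the 12 flags cannot be set against that rate. Of the CPM values, 2 were in abundant or called elements. Dll_215 reached 28483 CPM in CD2- cells on day 1, and ct_ct-3 reached 169.9 CPM in low-GFP cells on day 3.

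The other 6 CPM values were in the scattered elements. ey_UE0.8 reached 568.5 CPM and ct_wingmargin_Guss 4085 CPM in CD2+ cells on day 1. ss_E2.0_522 reached 1483 CPM in CD2- cells on day 4 and 3717 CPM in CD2+ cells on day 6. ct_340 reached 2892 CPM in CD2- cells on day 1 and 257.8 CPM in CD2+ cells on day 5.

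The 4 daily log2 ratios set apart all belonged to day 4, whose low-GFP library had the lowest TMM factor, 0.359. ss_P732 stood at -7.92 against both controls and at -8.189 against CD2+ cells, ct_ct-3 at -1.429 against both controls, and ct_340 at 6.744 against CD2+ cells. In that library ss_P732 had 14 counts and ct_ct-3 had 0. The part of that library in these values was not tested beyond the fits without it.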

How the results depend on the processing

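Against both controls in round 1, 48 elements of the pool were called in experiment 1 alone and 43 in experiment 2 alone. In experiment 2 alone 1 selector gene element was called higher and 0 lower, and ct_ct-3 was not tested there. Fits without a day or a library called 1 to 2 selector gene elements higher and 3 to 5 lower. Against CD2+ alone, 2 stayed lower with E. coli scaling. Experiments 1 and 2 alone called 14 and 6 elements, with 0 members either way, and leave-one-out fits called 50 to 85, with 1 to 2 members higher and 2 to 5 lower. Between the control sorts DESeq2 called 3 elements, 1 of them a lower member, ct_340 (-9.15), and leave-one-out fits called 0 to 1. In round 2 each experiment alone called 8 elements, leave-one-out fits 9 to 33 with 0 to 1 member, and Dll_304 was lost with total counts and in each experiment (0 members higher).

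With collection day as a replicate block, 88 elements were called in round 1 against both controls, 73 against CD2+, and 31 in round 2. Among members the block ended only the calls of ss_E2.0_531 (adjusted p = 0.0838 and 0.0962), and it turned uncalled values: ey_UE0.8 to 0.216 against both controls, and ss_E2.0_522 to 2.20 against both and 1.89 against CD2+. Leave-one-out fits took ey_UE0.8 from -1.49 to 0.285 against both controls and from -1.25 to 0.671 against CD2+, ss_E2.0_522 from -3.18 to 6.46 and from -3.75 to 5.84, and ct_340 from -6.05 to 0.0880 and from -1.36 to 5.73. In experiment 1 alone ct_340 stood at 0.397 against CD2+. Among pairs of elements, ct_340 minus ct_wingmargin_Guss turned to 0.144 with CD2+ as the only control and 0.381 in experiment 2. In experiment 2, ss_E2.0_522 minus ss_E2.0_531 turned to -1.86 and ss_E2.0_522 minus ss_P732 to -0.0189, and leaving out days took the first from -0.0193 to 3.32. The causes were not tested. The comparison of 1 element between rounds was not run, since no member passed the filter in both.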
